A study of Rattus norvegicus with 3 samples.

Results

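Genes for 4 enzymes of the urea cycle were followed across 3 libraries of rat liver RNA: Cps1 (ENSRNOG00000013704), Otc (ENSRNOG00000003370), Ass1 (ENSRNOG00000008837) and Arg1 (ENSRNOG00000013304). They are 4 of 26404 gene identifiers counted in each library. They were chosen by identifier, for their place in the pathway and not by a threshold on their values. Earlier results of these data were known when they were chosen. All 4 had reads in every library. The names were paired with the identifiers when the genes were chosen. No table used here pairs Ensembl identifiers with names, so that pairing, and the liver label against named marker genes, was not checked here. The first library came from healthy, untreated adult rats. The second came from adult rats pretreated with saline (1 ml) and the third from adult rats pretreated with etanercept (9 mg/kg in 1 ml), in both cases 16 to 18 hours before removal of 2/3 of the liver, and liver was taken 32 hours after surgery. Etanercept is a fusion protein that carries the TNF-binding part of a TNF receptor, so that TNF is captured before it reaches cells. Each group pooled the RNA of 3 rats before sequencing, and there was no sham-operated group. Each group is therefore 1 library, the spread between animals is hidden, and no p-value is given. Intervals below are 95% intervals of counting error only.

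The urea cycle turns ammonia from amino acid breakdown into urea, and in mammals the full cycle runs mainly in the hepatocytes of the liver. Cps1 makes carbamoyl phosphate from ammonia and bicarbonate in the mitochondrial matrix, the rate-limiting entry step, and Otc, also mitochondrial, joins it to ornithine to give citrulline. In the cytosol Ass1 condenses citrulline with aspartate to argininosuccinate, argininosuccinate lyase splits off arginine, and Arg1 cleaves arginine to urea and ornithine. Ass1 and Arg1 also govern how much arginine a cell makes or destroys.

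The DNA just upstream of 3 of these genes is shown for description. Whether it bears on their read counts was not tested. The sequences are RefSeq's, build GRCr8, and each is the 250 bases before an annotated transcript start, 5′ to 3′ on the gene's strand: Cps1 at chr9:76063613-76063862 (plus strand), Otc at chrX:15202474-15202723 (minus strand) and Ass1 at chr3:35149480-35149729 (plus strand). Arg1 had no entry in the promoter table. Capitals mark exact matches to the motifs searched.
Cps1: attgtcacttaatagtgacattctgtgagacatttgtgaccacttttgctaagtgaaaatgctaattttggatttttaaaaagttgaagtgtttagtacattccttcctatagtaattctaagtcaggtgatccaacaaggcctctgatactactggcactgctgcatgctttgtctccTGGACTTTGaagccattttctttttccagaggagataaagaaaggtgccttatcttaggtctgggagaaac
Otc: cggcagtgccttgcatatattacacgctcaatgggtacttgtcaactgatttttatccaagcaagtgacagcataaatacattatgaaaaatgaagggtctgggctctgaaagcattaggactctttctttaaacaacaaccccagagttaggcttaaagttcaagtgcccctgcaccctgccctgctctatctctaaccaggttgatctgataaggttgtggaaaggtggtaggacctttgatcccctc
Ass1: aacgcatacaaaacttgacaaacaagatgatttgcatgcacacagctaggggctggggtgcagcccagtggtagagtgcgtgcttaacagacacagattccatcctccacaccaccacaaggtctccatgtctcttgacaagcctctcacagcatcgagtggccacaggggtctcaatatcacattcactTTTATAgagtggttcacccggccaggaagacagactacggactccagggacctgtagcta
Both strands were searched for TTGCGCAA and TTGCNNAA (C/EBP-like; the first is a case of the second), TGACGTCA (the cyclic AMP response element), CAAAGTCCA (HNF4-like), TATAAA (the TATA box), CCAAT (the CCAAT box) and GGGCGG (the GC box). The Cps1 window held CAAAGTCCA on the minus strand, from base -71 to base -63 before the start, a match found in 0.338% of all 33469 windows of this length. The Ass1 window held TATAAA on the minus strand from base -60 to base -55, as 12.9% of all windows did on either strand. The Otc window held none of the 7 motifs. C/EBP-like TTGCNNAA, found in 9.22% of windows, was in none of the 3. GC content was 38.0% for Cps1, 44.4% for Otc and 51.2% for Ass1, against a median of 51.2% over all windows. The RefSeq record of Ass1 begins further upstream than this window, so the window belongs to 1 of its annotated starts. No data on binding or methylation accompany these windows, and a letter match is a description only.

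The libraries held 5993834 (healthy), 2645152 (saline) and 3639886 (etanercept) reads assigned to genes. The share of uniquely aligned reads that fell in no annotated gene was 19.9% (healthy), 21.7% (saline) and 77.4% (etanercept). The etanercept treatment and this difference in make-up cannot be told apart in any comparison with that library. Levels are CPM, read counts relative to library size, after scaling by TMM, a trimmed mean of gene ratios that takes the bulk of genes as level between libraries. A log2 fold compares scaled counts with 0.5 added to each count. A gene was called where it differed at least 2-fold and had at least 5 CPM in the higher library, and all 4 genes passed that level in every library. In whole liver, fewer hepatocytes and less RNA per hepatocyte cannot be told apart.

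All 4 genes had their highest TMM-scaled level in healthy liver, whereas with total gene reads Cps1 and Arg1 were highest in the saline library. They differed in how far below healthy the hepatectomy libraries lay. Ass1 was lower in the saline library and lower again in the etanercept library. Otc was lower to a similar degree in both. Cps1 and Arg1 stayed within 2-fold of healthy in each library with TMM. Summed, the 4 genes accounted for 0.995% of gene reads in healthy liver (0.987 to 1.003), 0.945% after saline (0.933 to 0.956) and 0.511% after etanercept (0.504 to 0.519). With TMM the sum lay further below healthy after saline, 1.44-fold (1.42 to 1.46), and 1.98-fold below after etanercept (1.95 to 2.01). Cps1 alone gave 54.0% of the summed reads in healthy liver, 65.8% in saline and 68.8% in etanercept.

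**Figure D1:**
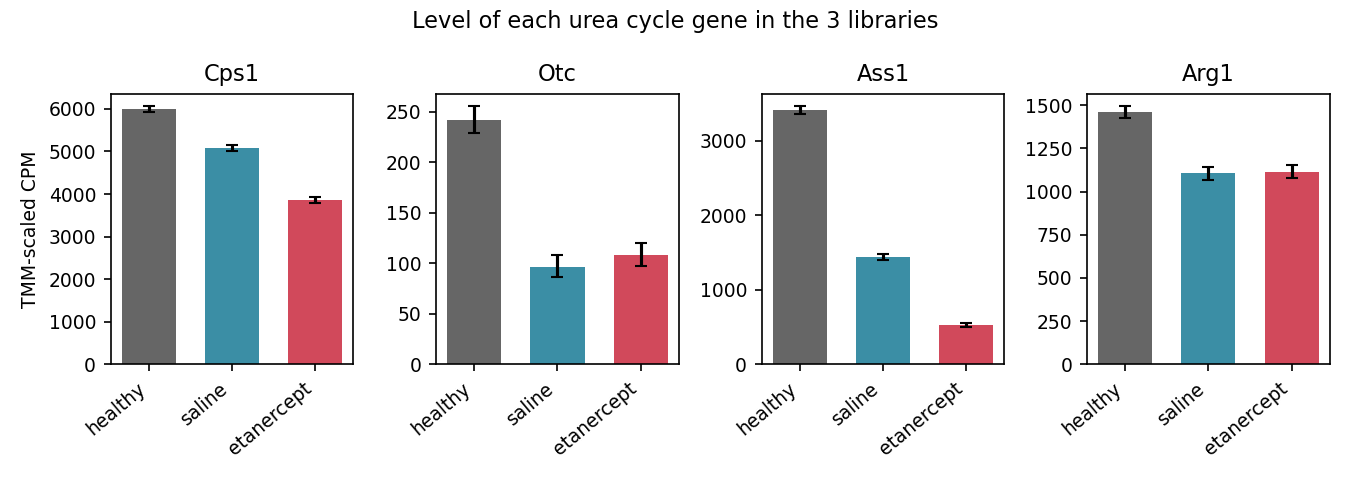
TMM-scaled CPM (vertical axis, from 0, its own scale in each panel) of Cps1, Otc, Ass1 and Arg1 in the healthy, saline and etanercept libraries, 1 pooled library each; bars are levels and error bars are exact Poisson 95% intervals of counting error. Ass1 steps down from 3410 to 1440 to 528 CPM, while Otc and Arg1 have overlapping intervals in the saline and etanercept libraries.

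Cps1 was the most read of the 4 genes in every library. It had 32184 reads in healthy liver, 16442 after saline and 12799 after etanercept, which are 5992, 5081 and 3855 CPM. Among all rows ordered by reads it stood 21st, 18th and 26th. Its intervals did not overlap: 5927 to 6058 CPM in healthy, 5004 to 5160 CPM in saline and 3788 to 3922 CPM in etanercept. The saline library was 1.18-fold below healthy (1.16 to 1.20) and the etanercept library 1.32-fold below saline (1.29 to 1.35). The first of these directions depends on scaling: with libraries scaled to total gene reads, Cps1 was higher in saline than in healthy liver, at a log2 fold of 0.21 in place of -0.24.

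Otc, the other mitochondrial enzyme, had the fewest reads. Its reads numbered 1298 in healthy liver, 312 after saline and 358 after etanercept, or 242, 96.4 and 108 CPM. The saline level was 2.50-fold below healthy (2.21 to 2.85), and the etanercept level 2.24-fold below healthy (1.99 to 2.53). The 2 hepatectomy libraries overlapped, with intervals of 86.0 to 108 CPM in saline and 96.9 to 120 CPM in etanercept. Their log2 fold, etanercept over saline, was 0.16 (-0.06 to 0.38), so a difference was not detectable at this depth with TMM. It was -0.26 (-0.49 to -0.04) with total gene reads.

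Ass1 varied most between libraries. Healthy liver gave 18314 reads, saline 4660 and etanercept 1753, which are 3410, 1440 and 528 CPM. Its place among all rows went from 38th in healthy to 51st in saline and 222nd in etanercept liver. The 3 intervals lay far apart, at 3360 to 3459, 1399 to 1482 and 504 to 553 CPM. The saline level was 2.37-fold below healthy (2.29 to 2.45). The etanercept level was 2.73-fold below saline (2.58 to 2.88) and 6.46-fold below healthy (6.15 to 6.79). The RefSeq gene table lists 2 pseudogenes named after Ass1 and 0 named after each of the other 3. Reads that align to several places were not assigned to genes, so reads shared between Ass1 and near-identical copies would be missing from its count.

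Arg1, which ends the cycle, differed least between the hepatectomy libraries with TMM, whereas with total gene reads or all uniquely aligned reads Otc did. There were 7844 reads in healthy liver, 3576 after saline and 3701 after etanercept, or 1460, 1105 and 1115 CPM. Both hepatectomy levels lay below the healthy interval of 1428 to 1493 CPM, 1.32-fold in saline (1.27 to 1.38) and 1.31-fold in etanercept (1.26 to 1.36). Their own intervals overlapped almost fully, at 1069 to 1142 and 1079 to 1151 CPM, and the log2 fold of etanercept over saline was 0.01 (-0.05 to 0.08). With total gene reads the saline over healthy log2 fold of Arg1 was 0.047 (-0.01 to 0.10) and its etanercept over saline log2 fold -0.41 (-0.48 to -0.34).

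Ratios of reads between genes of the same library need no scaling between libraries. By these ratios Ass1 parted from Cps1 and Arg1 in both hepatectomy libraries, and from Otc in the etanercept library. There were 1.76 Cps1 reads for each Ass1 read in healthy liver (1.73 to 1.79), 3.53 after saline (3.42 to 3.65) and 7.30 after etanercept (6.95 to 7.68). For each Arg1 read there were 2.33 Ass1 reads in healthy liver (2.27 to 2.40), 1.30 in saline (1.25 to 1.36) and 0.474 in etanercept (0.447 to 0.501). Ass1 thus had more reads than Arg1 in the first 2 libraries and fewer in the third. The ratio of Cps1 to Arg1 moved much less, from 4.10 (4.003 to 4.21) to 4.60 (4.43 to 4.77) and 3.46 (3.33 to 3.59). The intervals of all 3 ratios were separate in the 3 libraries. Reads also depend on transcript length, which was not used here, so these ratios are compared between libraries and say nothing of which transcript was more abundant.

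The ratios with Otc split the libraries in another way. The ratio of Cps1 to Otc was 24.8 in healthy liver (23.5 to 26.2), 52.7 in saline (47.1 to 59.1) and 35.8 in etanercept (32.2 to 39.8). Otc and Ass1 kept nearly 1 ratio between healthy and saline liver, with 14.1 Ass1 reads per Otc read (13.3 to 14.9) against 14.9 (13.3 to 16.8), intervals that overlap. In the etanercept library this ratio was 4.90 (4.37 to 5.50). For Arg1 there were 6.04 reads per Otc read in healthy (5.70 to 6.41), 11.5 in saline (10.2 to 12.9) and 10.3 in etanercept (9.27 to 11.6), and the last 2 intervals overlap.

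**Figure D2:**
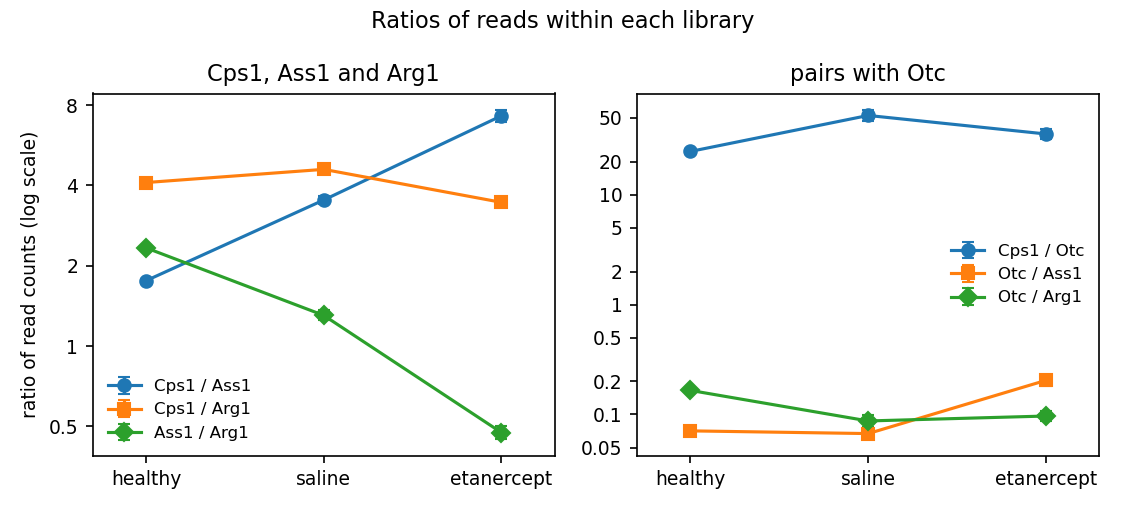
Ratio of read counts between 2 urea cycle genes (vertical axis, log scale) in each of the 3 libraries; points are ratios, lines join the same ratio, and error bars are exact 95% intervals of counting error, often smaller than the points. Cps1 over Ass1 goes from 1.76 to 3.53 to 7.30, and Ass1 over Arg1 from 2.33 to 1.30 to 0.474.

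As shares of the reads of the 4 genes together, Ass1 made up 30.7% in healthy liver (30.3 to 31.1), 18.6% in saline (18.2 to 19.1) and 9.42% in etanercept (9.00 to 9.85). Cps1 made up 54.0%, 65.8% and 68.8%. Arg1 made up 13.2%, 14.3% and 19.9%, and Otc 2.18%, 1.25% and 1.92%. The share of Ass1 was lowest in the etanercept library, where those of Cps1 and Arg1 were highest. By construction, a lower share of 1 gene raises the shares of the others. The TMM-scaled level of neither Cps1 nor Arg1 was highest in that library. Cps1 was lowest there, at 3855 CPM, and Arg1 lay below healthy, at 1115 CPM.

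Set against all rows tested, the saline over healthy differences of Otc and Ass1 lay in the lower tail. Of the 4 genes, 2 (Otc and Ass1) were at least 2-fold lower in saline than in healthy liver and 0 were higher, where 9.66% of 9755 rows were lower (942 rows) and 9.32% higher (909 rows). With total gene reads 3.66% of rows were lower (363) and 20% higher (1987), and 0 of the 4 genes were called. A log2 fold below that of Otc was found in 5.05% of rows, below that of Ass1 in 6.03%, below that of Arg1 in 30.0% and below that of Cps1 in 39.3%. The median log2 fold was -0.82 over the 4 genes and -0.07 over all rows tested. Abundant rows were lower more often: of the 103 with a mean of at least 1000 CPM, 30.1% were at least 2-fold lower. Their median was -0.63. Of these 103 rows, 24 had a log2 fold below that of Ass1, 63 below that of Arg1 and 74 below that of Cps1. Otc, at under 250 CPM in every library, is not in that class, so the median of the 4 genes and that of the class cover unlike sets.

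In etanercept over saline, Ass1 was the 1 gene of the 4 that was called, as lower, where 19.2% of 9991 rows were lower (1915) and 18.3% higher (1827). With total gene reads 31.6% were lower (3204) and 10.8% higher (1092), and Ass1 remained the 1 gene called, at a log2 fold of -1.87 in place of -1.45. A log2 fold below that of Ass1 was found in 11.8% of rows, and in 6 of the 103 rows of at least 1000 CPM. Cps1, at a log2 fold of -0.40 (-0.43 to -0.37), had 36.0% of rows below it, Arg1 50.4% and Otc 55.5%. Of the 103 abundant rows, 41 lay below Cps1 and 52 below Arg1. The median log2 fold of the 4 genes was -0.19, against 0.00 over all rows and 0.01 over the 103 abundant rows, which do not include Otc.

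In etanercept over healthy, 2 of the 4 genes were called, again Otc and Ass1 and both lower, where 24.0% of 10069 rows were lower (2417) and 21.9% higher (2210). The healthy library also serves the comparison of saline with healthy, and the etanercept library that of etanercept with saline. Each gene's log2 fold here is the sum of its log2 folds in those 2 comparisons. The calls are therefore not independent of each other. The log2 folds were -2.69 for Ass1 (-2.76 to -2.62), -1.16 for Otc (-1.34 to -0.99), -0.64 for Cps1 (-0.67 to -0.61) and -0.39 for Arg1 (-0.45 to -0.33). Of all rows, 5.17% lay below Ass1, 20.5% below Otc, 32.7% below Cps1 and 39.9% below Arg1. Of the 103 abundant rows, 39.8% were at least 2-fold lower, and 7 lay below Ass1, 49 below Cps1 and 58 below Arg1. Medians were -0.90 over the 4 genes, -0.04 over all rows and -0.59 over the abundant rows. The median of the 4 genes includes Otc, which is not an abundant row, so it and the abundant median cover unlike sets.

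**Figure D3:**
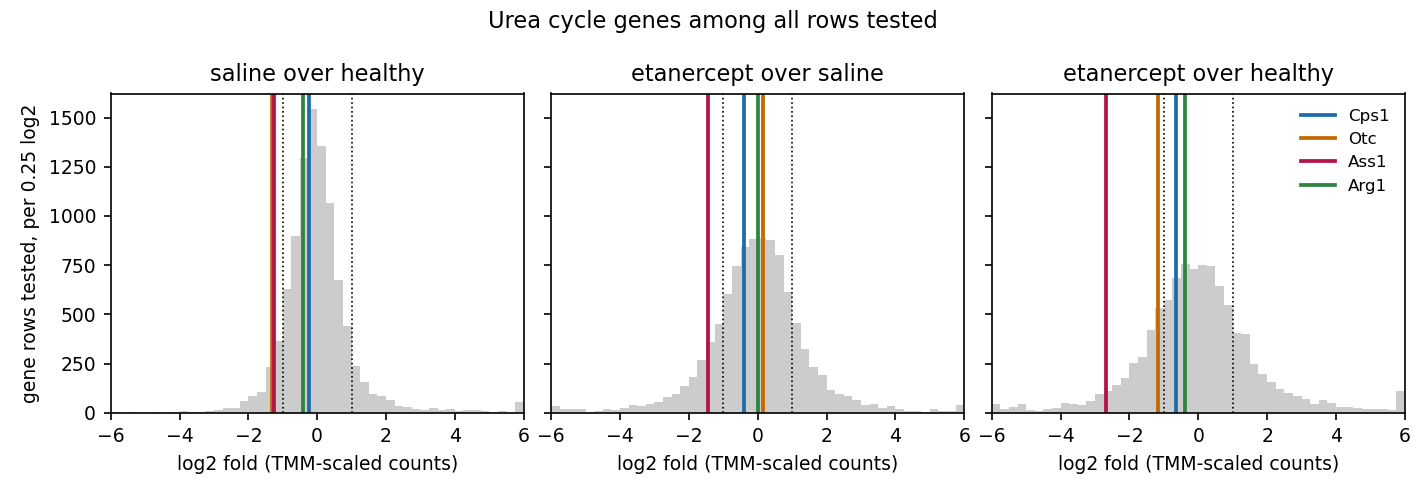
Log2 folds of all rows tested (grey histograms, rows per 0.25 log2; values beyond -6 or 6 are drawn in the end bins) in the 3 comparisons, with coloured lines at Cps1, Otc, Ass1 and Arg1 and dotted lines at 2-fold. Ass1 lies left of the 2-fold line in all 3 panels, at -1.24, -1.45 and -2.69, while Cps1 and Arg1 lie inside both lines in each.

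The scaling of the libraries decided the direction of several of these genes' differences between libraries. Total gene reads in place of TMM shifted every log2 fold by 0.45 in saline over healthy, by -0.42 in etanercept over saline and by 0.03 in etanercept over healthy. The number of the 4 genes below 0 in saline over healthy was 4 with TMM and 2 with total gene reads, where Cps1 and Arg1 were above 0. In etanercept over saline it was 2 with TMM and 4 with total gene reads. Ass1 was below 0 in all 3 comparisons under all 8 alternatives tried. Its log2 fold ranged from -1.25 to -0.79 in saline over healthy, and was not called there with total gene reads or with all uniquely aligned reads. Otc was below healthy in both hepatectomy libraries under the same alternatives.

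**Figure D4:**
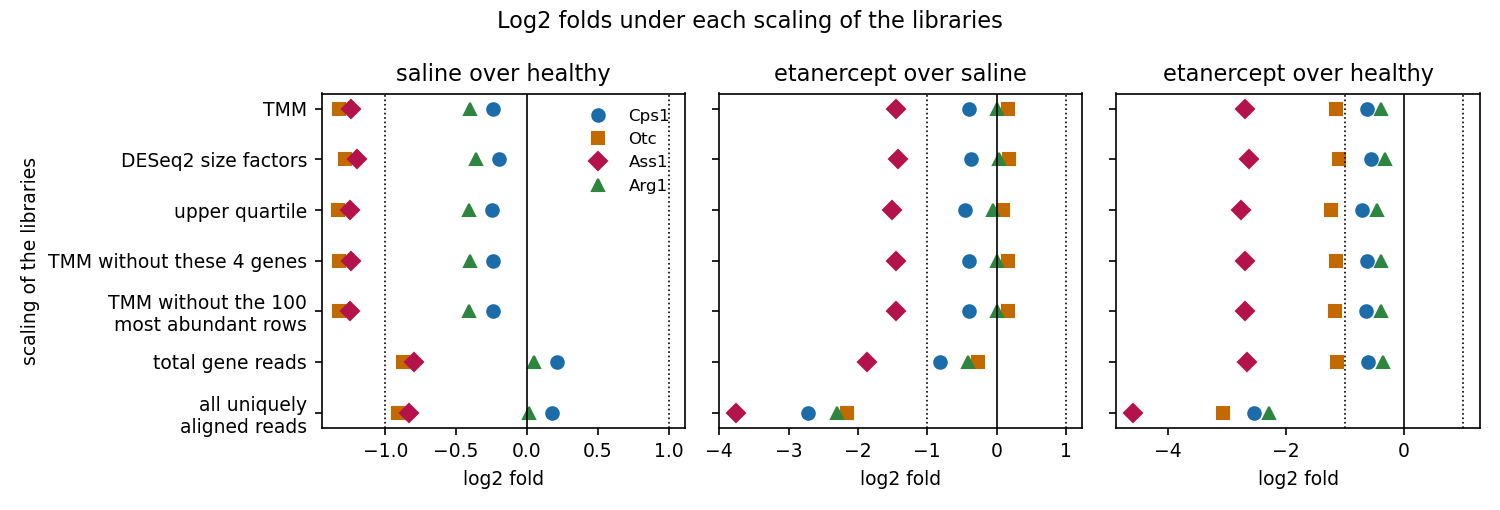
Log2 folds (horizontal axis) of the 4 genes in the 3 comparisons under TMM and 6 other scalings of the libraries (rows); the solid line marks no difference and dotted lines mark 2-fold. Total gene reads move Cps1 from -0.24 to 0.21 in saline over healthy, and scaling to all uniquely aligned reads moves every etanercept point left, Ass1 to -4.59 against healthy.

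The naming rule also gave the 2 of 1361 other rows with a mean of at least 100 CPM that lay nearest to the median point of the 4 genes, at TMM log2 folds of -0.82 (saline over healthy) and -0.90 (etanercept over healthy). None of the 4 genes lies near that point, Ass1 being at -1.24 and -2.69 and Cps1 at -0.24 and -0.64, so these rows match the median and not the pattern of any 1 gene. They were ENSRNOG00000012786, at 567 CPM in healthy, 321 CPM in saline and 307 CPM in etanercept liver, and ENSRNOG00000003620, at 314, 182 and 177 CPM. Both levels after hepatectomy were close to each other in these rows. That follows from how the rows were picked, since the median point itself has nearly equal log2 folds. The median point rests on 3 libraries and moves with their scaling, to -0.37 in saline over healthy with total gene reads. The other genes of the pathway, among them argininosuccinate lyase and N-acetylglutamate synthase, which makes the activator of Cps1, were listed by symbol and were not scored, since 0 of the 26404 identifiers matched the RefSeq gene table.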

How the data were processed

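RNA of pooled adult rat livers was sequenced on an Ion Torrent instrument, 1 library for each of 3 groups. A RiboMinus kit took out ribosomal RNA, per the labels' protocols. The authors deposited raw, whole-number read counts for each Ensembl gene identifier, and TopHat2 2.0.13 and HTSeq 0.6.1 are named per the submitters' processing notes. The sources used here do not state the genome build, annotation release or strand setting, so antisense reads may be included. Rows naming no gene (reads outside genes at 19.9% to 77.4% and ambiguous reads at 0.729% to 1.69% of uniquely aligned reads) stayed out of library sizes. The row of reads aligned to several places, 23930072, 14151091 and 36628956 entries in healthy, saline and etanercept liver, stayed out of every share.

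TMM factors (edgeR 4.0.16, R 4.3.3) were 0.896, 1.22 and 0.912 for the healthy, saline and etanercept libraries. Folds used a pseudocount of 0.5; 95% intervals are exact Clopper-Pearson (folds, shares, ratios) or exact Poisson (levels), from scipy 1.17.1. They were computed without the pseudocount and cover counting error only, as reads without molecular identifiers are not independent molecules. The calling code was tested on simulated Poisson counts in which some genes were given a known fold. These counts held no spread between animals and no other difference in make-up between libraries. The simulation therefore covers the code only. With 1 library per group no test was made. Named were the 4 genes and the 2 rows nearest to their median log2 folds; the genes, lists, motifs and rules were chosen with earlier results of these data known. Alternatives were other scalings (total reads, DESeq2 1.42.0 size factors, upper quartile, TMM without the 4 genes or the 100 most abundant rows, all uniquely aligned reads), pseudocounts, filters and fold sizes. Levels per length were not computed, as no transcript lengths were used. Lists of other pathway genes and of cell type markers were not scored, since 0 identifiers matched by name.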

Additional observations from a re-analysis of the deposited data

Results flagged for a closer look

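Reads outside single genes enter none of the gene comparisons. Their share was a little larger in the saline library than in healthy liver and far larger in the etanercept library. Among uniquely aligned reads, those in no gene were 21.7% after saline, 77.4% after etanercept and 19.9% in healthy liver. Ambiguous reads, which lie in several genes at once, were 0.871% after saline, 1.69% after etanercept and 0.729% in healthy liver. Of the same uniquely aligned reads the 4 urea cycle genes took 0.790% (healthy), 0.732% (saline) and 0.107% (etanercept). With 1 library per group these differences were not tested, and neither was their part in the levels of the 4 genes.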

How the results depend on the processing

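Directions and calls of the 4 genes held with DESeq2 size factors, with TMM computed without the 4 genes or without the 100 most abundant rows, and with pseudocounts of 0 or 3. Upper quartile scaling turned Arg1 in etanercept over saline to -0.051 and the median of the 4 genes there to -0.26. With total gene reads, saline over healthy log2 folds were 0.21 for Cps1 and 0.047 for Arg1, with a median of -0.37 and 0 genes at least 2-fold lower; etanercept over saline was -0.26 for Otc and -0.41 for Arg1, with a median of -0.62. With all uniquely aligned reads, saline over healthy was 0.18 for Cps1 and 0.012 for Arg1, with a median of -0.41 and 0 genes at least 2-fold lower. Etanercept over saline was then -2.15 for Otc and -2.30 for Arg1, with a median of -2.51 and 4 genes at least 2-fold lower, and etanercept over healthy had a median of -2.80 and 4 such genes. By construction these scalings shift all genes of a comparison by 1 amount. With all uniquely aligned reads that shift from TMM was 0.41 in saline over healthy, -2.32 in etanercept over saline and -1.90 in etanercept over healthy. The share of all rows called under that scaling was not computed. Its counts of genes at least 2-fold lower therefore cannot be read as particular to the 4 genes.

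Summed shares of the 4 genes were 0.790%, 0.732% and 0.107% (healthy, saline, etanercept) of all uniquely aligned reads, and 1.39%, 1.26% and 0.727% of gene reads without the 15 rows that were among the 10 most read in any library. Rows at least 2-fold apart numbered 1851 in saline over healthy, 3742 in etanercept over saline and 4627 in etanercept over healthy. These were 19%, 37.5% and 46% of the rows tested, whose number changes with the filter. Without a filter they numbered 5127, 8078 and 8346 (30.2%, 51.9% and 50.1%). With at least 20 CPM they numbered 950, 2085 and 2711 (16.5%, 34.1% and 43.8%). At 1.5-fold they numbered 3848, 5964 and 6600 (39.4%, 59.7% and 65.5%). No paired analysis was possible because each group is 1 pooled library, and for the same reason no replicate could be left out. Counting error limits Otc most, at 312 reads in saline.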
